A study of Rattus norvegicus with 16 samples.

Results

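The late minus early agonist effect is a difference of differences: the effect of an androgen receptor agonist after 48 h, less its effect after 4 h. It was computed from 13 of the 16 arrays of the series, those that the authors kept. The labels call the cells rat levator ani satellite cells, at passage 5. The cells received 10 nM NARA, a nonsteroidal agonist of the androgen receptor known here by its code name, or vehicle. The groups used held 4 arrays of NARA at 48 h, 3 of vehicle at 48 h, 2 of NARA at 4 h and 4 of vehicle at 4 h. The vehicle was 0.2% DMSO, the solvent content of the NARA cultures is not given in the labels, and all groups grew with charcoal-stripped serum, which lacks most steroids. A probe set, the group of short probes that measures 1 transcript on the array, was tested when its mean signal over the 13 arrays was at least 300. This gave 20904 of 31042 non-control probe sets, of which 15458 named 1 gene each, and they covered 11286 genes. The samples are titled biological replicates, but no label names a culture or an animal for them, so a p-value measures spread among samples that may differ only technically.

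The androgen receptor is a ligand-activated transcription factor. Once an agonist is bound it enters the nucleus, binds androgen response elements in DNA and changes transcription within hours, while later changes can also pass through the products of the first target genes. The levator ani is a pelvic muscle of the rat whose size depends on androgens, and satellite cells are the stem cells of muscle. For each gene the difference of effects was positive where NARA, relative to vehicle, acted more upward at 48 h than at 4 h.

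Pairs of the 13 arrays had correlations of 0.93 to 0.956 (genes are not independent replicates), and their median signals lay between 538.78 and 612.66. The small number of arrays, above all the 2 NARA arrays at 4 h, limits the precision of every difference. Of 16 markers of satellite cells and myoblasts, 12 were on the array and 11 reached the minimum signal. Pax7, Pax3, Myf5 and Msc were not in the annotation used here, and Myod1 lay below the minimum. The label could thus not be checked against the defining transcription factors of satellite cells, while all 12 markers of a fibroblast list reached the minimum. The median signal of the members was 29006 in the fibroblast list and 852 in the satellite list, although signals of different probe sets are not strictly comparable. The summed signal of the satellite list was 19027 to 22662 in NARA at 48 h, against 26846 to 32426 in vehicle at 48 h, and 24890 to 25977 in NARA at 4 h, against 25694 to 29609 in vehicle at 4 h. Such a sum follows its brightest members, and the list did not move together: 4 of the 11 members were higher and 7 lower in NARA at 48 h, with 2 in each direction at an unadjusted p under 0.05. The fibroblast sums overlapped between NARA and vehicle at both times. Of the 12 members, 8 were lower in NARA at 48 h, and the median effect of the list was -0.32. Of these 8, 6 had an unadjusted p under 0.05, as did 1 of the higher members. Beside these counts in both lists, 3347 of all 20904 probe sets had such a p at 48 h. In such bulk samples, fewer cells of a type and less RNA per cell cannot be told apart.

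With limma and Benjamini-Hochberg adjustment over all probe sets, the difference of effects passed the adjusted threshold of 0.05 in 26 of 20904 probe sets, 0.124%. It was positive in 12 of them (0.0574% of all) and negative in 14 (0.067%). They named 21 genes, and 4 of them had no gene name in the annotation. The agonist effect itself passed in 586 probe sets at 48 h (2.8%), 285 higher (1.36%) and 301 lower (1.44%) in NARA, and in 0 at 4 h (0%), where 992 (4.75%) had an unadjusted p under 0.05. The count for the difference depended on single arrays: it was 1 when NARA 48 h replicate 4 was left out, 1 for vehicle 48 h replicate 3, 5 for NARA 4 h replicate 3, 8 for NARA 4 h replicate 2, 13 for vehicle 4 h replicate 3 and 17 for vehicle 48 h replicate 2. All 26 kept their sign in all 13 fits that left out 1 array, and the adjusted p of the 26 reached at most 0.147 in them. The 48 h count was 310 without vehicle 48 h replicate 3 and 321 without vehicle 48 h replicate 2. The 4 h count was 11 without NARA 4 h replicate 2 and 19 without NARA 4 h replicate 3, fits in which the remaining NARA array is assumed to vary like the other groups. With median scaling the calls were 14 positive and 10 negative. With the replicate number as a block, limma gave 0 calls for the difference. All 26 kept their sign in that fit, with adjusted p up to 0.2485. With the 3 excluded arrays put back without weights, limma gave 0 calls for the difference, with 2101 probe sets at an unadjusted p under 0.05, and 10 of the 26 changed sign. Of these arrays, NARA 4 h replicates 1 and 4 had correlations of only 0.645 to 0.673 with the used arrays. With array weights over all 16 arrays, 14 of the 26 still passed and all 26 kept their sign. At the edge of the threshold, Dab2 and Olfml2a passed with adjusted p = 0.0394 and 0.0451, while Crispld2 and Marcks did not, both with adjusted p = 0.0539.

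**Figure D1:**
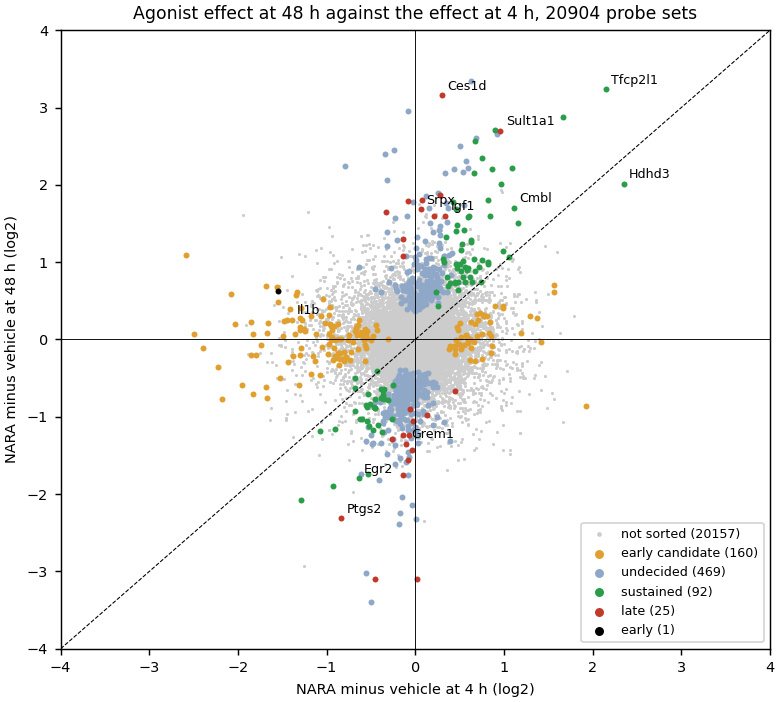
The effect of NARA against vehicle at 48 h (vertical axis, log2) is plotted against the effect at 4 h (horizontal axis, log2) for 20904 probe sets, coloured by response class. The 25 late probe sets lie between -0.83 (Ptgs2) and 0.96 (Sult1a1) on the 4 h axis, the 92 sustained ones between the diagonal and the vertical axis in most cases, and the 160 early candidates near 0 on the 48 h axis.

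Each probe set was sorted into a response class. Late meant that the difference of effects passed and that the 48 h effect was the bigger in size, and early meant that it passed with the bigger effect at 4 h. Of the 26, 25 were late and 1 was early. Sustained meant that the effect passed at 48 h, had the same sign at 4 h with an unadjusted p under 0.05, and did not differ past the threshold between times. This class held 92 probe sets, which stood for 55 genes by each gene's brightest probe set, 34 higher and 21 lower in NARA at 48 h. Another 469 probe sets passed at 48 h but could be placed in neither class, and these are called undecided; they were 234 without vehicle 48 h replicate 2 and 238 without vehicle 48 h replicate 3. The median 4 h effect was 0.0591 of the 48 h effect over the late probe sets, 0.528 over the sustained and 0.128 over the undecided, values that the sorting itself shapes.

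The difference of effects can also be read as the change over time in NARA less the change over time in vehicle. The change in NARA, 48 h minus 4 h, was the bigger in size for 24 of the 25 late probe sets. It passed on its own in 23 of them, beside 164 of all 20904 (0.785%), whereas the change in vehicle passed in 0 of the 25 and in 0 of all (0%), with 7.35% of all at an unadjusted p under 0.05. The count in NARA was 69 or 107 when replicate 2 or 3 of the 4 h NARA arrays was left out, and 77 or 79 when replicate 3 or 4 of the 48 h NARA arrays was. Because these time changes use the same arrays as the difference of effects, they describe which groups moved and are no separate evidence.

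**Figure D2:**
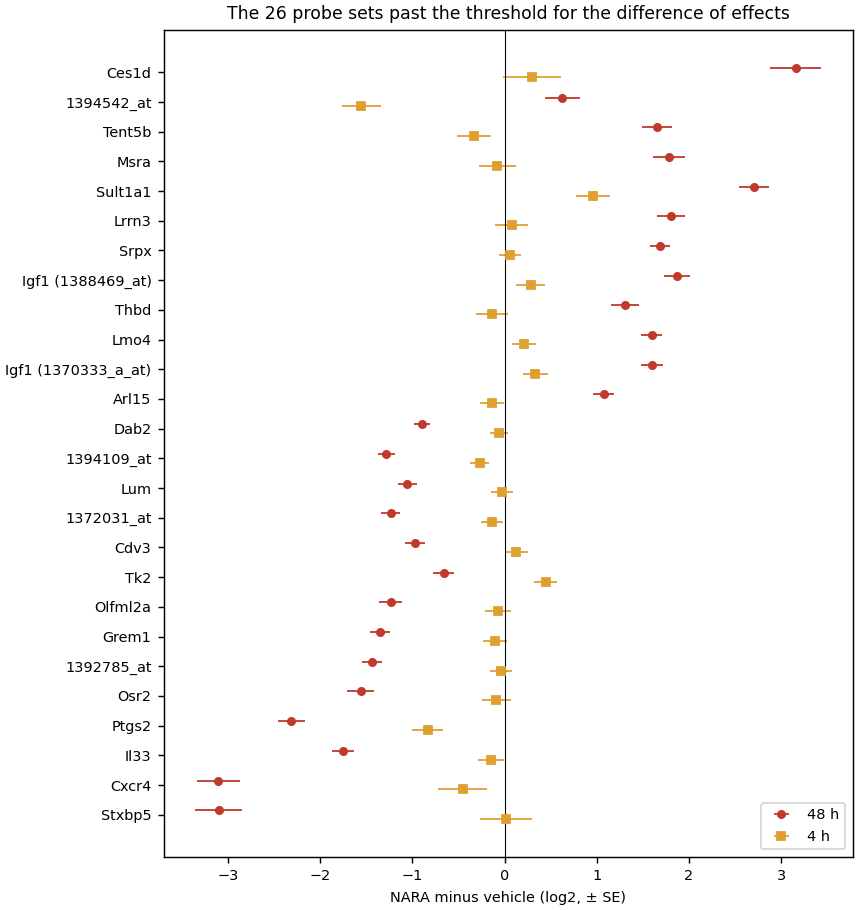
The effect of NARA against vehicle (horizontal axis, log2, with SE bars from limma) is shown at 48 h (circles) and at 4 h (squares) for the 26 probe sets that passed for the difference of effects, ordered by that difference. All but 1394542_at have the effect of greater size at 48 h, and the late 4 h effects run from -0.83 to 0.96.

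Igf1, the secreted growth factor that acts on muscle cells through its receptor tyrosine kinase, was the growth factor among the late genes. Its brightest probe set had signals of 86078, 96632, 81278 and 97449 in NARA at 48 h, against 25124, 32445 and 31938 in vehicle at 48 h. At 4 h the signals were 36731 and 33330 in NARA, against 29677, 27965, 27165 and 26360 in vehicle. The groups did not overlap at either time, and only NARA at 48 h stood far above the rest. The effect was 3.04-fold at 48 h (log2 1.60), against a log2 effect of 0.33 at 4 h, and the difference of effects was 1.27 (SE 0.18, adjusted p = 0.0226). A second Igf1 probe set passed with a difference of 1.59 (SE 0.21, adjusted p = 0.0203). The remaining Igf1 probe set had the same sign with a difference of 0.99 and did not pass (SE 0.23, adjusted p = 0.182). Its 4 h effect was 0.59, and it was among the sustained. Igf1 was the 1 member to pass for the difference, or at 48 h, among 15 measured genes of the insulin-like growth factor axis. The next by p was Stc1, a secreted inhibitor of the protease that frees the factor, with a difference of 0.68 (adjusted p = 0.508).

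Srpx, which encodes a secreted protein with sushi repeats, had the smallest p-value for the difference. Its signals were 29144, 27346, 28450 and 29183 in NARA at 48 h, against 8930, 9525 and 8061 in vehicle at 48 h. They were 10702 and 9399 in NARA at 4 h, against 10631, 8636, 10101 and 9258 in vehicle at 4 h. The 4 h groups overlapped, and the 48 h NARA arrays lay above every other array. The difference of effects was 1.63 (SE 0.16, adjusted p = 0.00961), and Srpx alone among the 26 passed in all 13 fits that left out 1 array.

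A pair of transcriptional regulators was late, in opposite directions. Lmo4, a LIM-domain cofactor of transcription factors, had signals of 35867, 37889, 36043 and 37288 in NARA at 48 h, against 11095, 12098 and 13262 in vehicle at 48 h. At 4 h Lmo4 had 17249 and 15957 in NARA, against 15000, 12269, 16348 and 13913 in vehicle, and these groups overlapped. Its difference of effects was 1.38 (SE 0.17, adjusted p = 0.017). The other 3 Lmo4 probe sets also had positive differences, from 0.63 to 1.15, and did not pass. Osr2, a zinc finger factor of the odd-skipped family, had 464.7 to 691.9 in NARA at 48 h, against 1812 to 1917 in vehicle at 48 h, and 1445 and 1745 in NARA at 4 h, against 1416 to 1856 in vehicle at 4 h. Its difference was -1.47 (SE 0.22, adjusted p = 0.0269).

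Ces1d, Sult1a1 and Msra, enzymes that handle foreign compounds, phenols and oxidised protein, were also higher in NARA at 48 h. Ces1d, a carboxylesterase, had signals of 5083, 3928, 5749 and 6199 in NARA at 48 h, against 726.5, 607.8 and 342.4 in vehicle at 48 h. At 4 h Ces1d had 543.0 and 543.0 in NARA, inside the vehicle range of 272.0 to 582.2. With a difference of 2.86 (SE 0.42, adjusted p = 0.0275), it had the greatest positive difference among the 26. Sult1a1, a sulfotransferase of phenols, had 12209, 13258, 15567 and 14607 in NARA at 48 h, against 2200, 2129 and 1934 in vehicle at 48 h. Its 4 h signals were 2447 and 3400 in NARA, against 1460, 1462, 1166 and 1822 in vehicle. Sult1a1 was thus apart at both times: the log2 effect was 2.70 at 48 h and 0.96 at 4 h (unadjusted p = 0.000239, adjusted p = 0.29), and the difference was 1.74 (SE 0.24, adjusted p = 0.0226). Msra, which reduces oxidised methionine, had 1095 to 1590 in NARA at 48 h, against 309.9 to 412.8 in vehicle at 48 h, and overlapped at 4 h, with a difference of 1.86 (adjusted p = 0.0226). Of 18 measured genes of drug and steroid metabolism, 2 passed for the difference, Ces1d and Sult1a1, both positive, and the median difference of the list was -0.07, beside -0.00 over all genes, and 0.0020 without NARA 4 h replicate 2.

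The other late genes that rose encode proteins of the cell surface, of trafficking and of RNA. Thbd, the thrombin receptor thrombomodulin, had 3675, 3413, 3132 and 3098 in NARA at 48 h, against 1318, 1367 and 1258 in vehicle at 48 h. At 4 h Thbd had 749.5 and 982.2 in NARA, inside the vehicle range of 810.1 to 1246 for 1 of the 2 arrays and below it for the other, and the difference was 1.44 (SE 0.23, adjusted p = 0.0391). A dimmer Thbd probe set had a difference of 0.41 (adjusted p = 0.892) and a 48 h effect of 0.70 (adjusted p = 0.481), and neither passed. Lrrn3, a membrane protein with leucine-rich repeats, differed by 1.73 (adjusted p = 0.0203) and the small GTPase Arl15 by 1.21 (adjusted p = 0.0226). Tent5b, a terminal nucleotidyltransferase, differed by 1.98 (adjusted p = 0.017). Its 2 NARA arrays at 4 h had 384.7 and 270.2, against 351.3 to 472.9 in vehicle, so the 4 h effect was -0.33 (unadjusted p = 0.0992) and opposite in sign to the 48 h effect of 1.65. A dimmer Tent5b probe set had a difference of 0.18 and did not pass (adjusted p = 0.97).

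**Figure D3:**
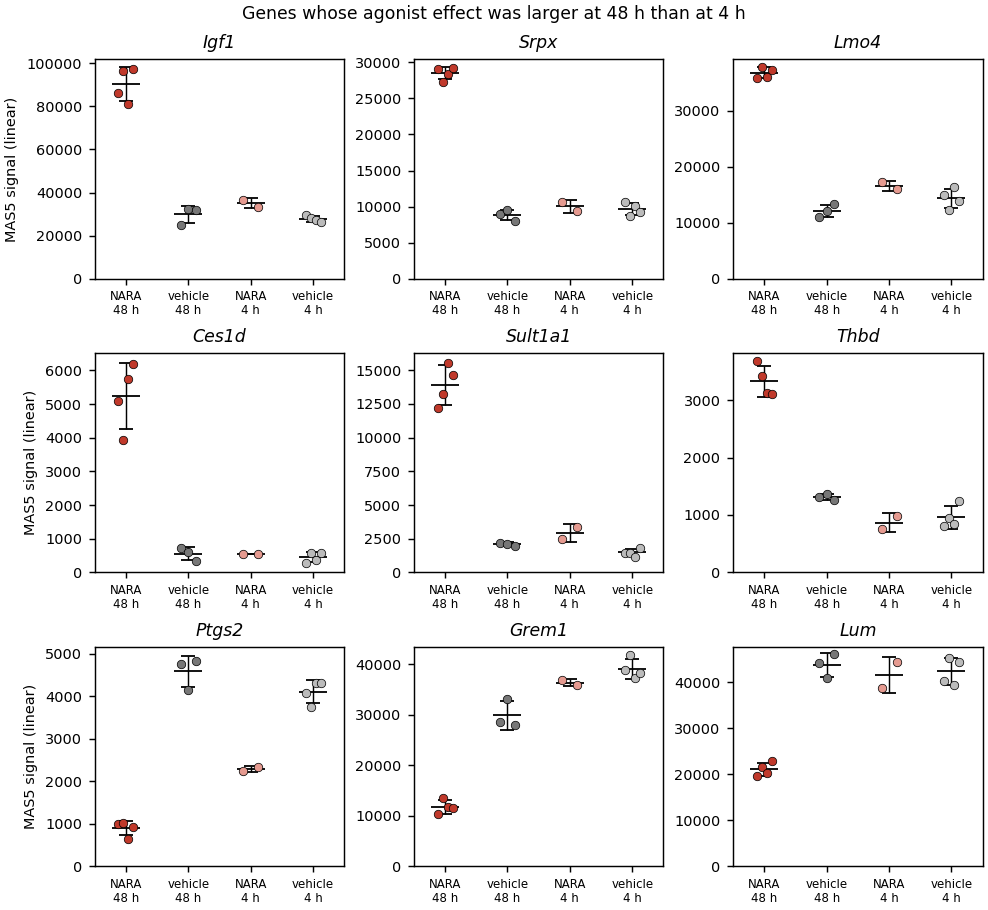
MAS5 signal (vertical axes, linear and starting at 0) in each array for 9 late genes, with the group mean and SD, in NARA and vehicle at 48 h and then at 4 h. For Igf1, Srpx, Lmo4, Ces1d, Sult1a1 and Thbd the 4 NARA arrays at 48 h lie above all others, and for Ptgs2, Grem1 and Lum they lie below all others.

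Among the genes that fell late, Ptgs2, the inducible cyclooxygenase that starts prostaglandin synthesis, had signals of 986.5, 1025, 647.5 and 913.4 in NARA at 48 h, against 4758, 4158 and 4837 in vehicle at 48 h. At 4 h Ptgs2 had 2230 and 2329 in NARA, against 4070, 3746, 4313 and 4314 in vehicle. The groups were apart at both times, the 4 h arrays of NARA lying between the vehicle arrays and the 48 h NARA arrays. The log2 effect was -2.31 at 48 h and -0.83 at 4 h (unadjusted p = 0.00033, adjusted p = 0.29), and the difference was -1.48 (SE 0.22, adjusted p = 0.0275). Ptgs2 and Sult1a1 carried a sizeable effect at 4 h within the late class. In all, 5 late probe sets had an unadjusted p under 0.05 at 4 h, and 9 of the 25 had groups apart at 4 h, beside 14.3% of all probe sets. At 48 h the groups were apart for all 25, beside 14.7% of all. Both shares come from the arrays by which the late class was sorted, and the sorting largely fixes the one at 48 h.

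Grem1, Lum, Olfml2a and Dab2 were also lower in NARA at 48 h. Grem1, a secreted antagonist of bone morphogenetic proteins (BMPs), had 10246, 13472, 11630 and 11449 in NARA at 48 h, against 28499, 33085 and 27909 in vehicle at 48 h. At 4 h Grem1 had 36784 and 35864 in NARA, against 38909, 41886, 37258 and 38169 in vehicle. The NARA arrays at 48 h were the lowest of all, and the difference was -1.25 (SE 0.17, adjusted p = 0.0203). Lum, a small leucine-rich proteoglycan of collagen fibrils, had 19581, 21490, 20325 and 22779 in NARA at 48 h, against 44221, 40941 and 46151 in vehicle at 48 h, and overlapped at 4 h at 38838 and 44287 in NARA, against 39414 to 45191 in vehicle. Its difference was -1.03 (SE 0.15, adjusted p = 0.028). Olfml2a, a secreted protein with an olfactomedin domain, differed by -1.16 (adjusted p = 0.0451) and the endocytic adaptor Dab2 by -0.83 (adjusted p = 0.0394), the smallest difference among the 26. Olfml2a and Dab2 passed in 0 of the 13 fits that left out 1 array.

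For Cxcr4, Il33, Cdv3 and Stxbp5 the late call came from a probe set that was not the brightest of its gene. Cxcr4, the receptor of the chemokine Cxcl12 and a marker of the satellite list, had signals of 566.9, 259.9, 420.5 and 435.8 in NARA at 48 h, against 3634, 3846 and 4184 in vehicle at 48 h. The same probe set had 1967 and 2132 in NARA at 4 h, against 2352, 3823, 2182 and 3208 in vehicle at 4 h, and its difference was -2.65 (SE 0.35, adjusted p = 0.0203). The brightest Cxcr4 probe set had a difference of -2.47 (adjusted p = 0.0567) and another one of -2.90 (adjusted p = 0.215), so all 3 had the same sign. Il33, a nuclear cytokine of the interleukin-1 family, differed by -1.61 (adjusted p = 0.017) in 1 probe set and by -0.59 (adjusted p = 0.584) in the brighter one. That brighter Il33 probe set was sustained, with effects of -1.12 at 48 h and -0.52 at 4 h. Cdv3 differed by -1.10 (adjusted p = 0.0275) and, in its brightest probe set, by -0.65 (adjusted p = 0.152). Stxbp5, a syntaxin-binding protein that restrains vesicle fusion, had the greatest difference of all, -3.12 (adjusted p = 0.017), in a probe set at 25.6 to 139.9 in NARA at 48 h, against 938.0 to 1083 in vehicle at 48 h. Its brighter probe sets differed by -0.89 and -0.85 and did not pass, so the size of the Stxbp5 change depended on the probe set. In the brightest of them the 48 h effect did not pass either (limma adjusted p = 0.0557).

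Tk2, the mitochondrial thymidine kinase, was late with effects of opposite sign. It had 792.8, 883.6, 1043 and 1021 in NARA at 48 h, against 1508, 1479 and 1512 in vehicle at 48 h, but 1395 and 1342 in NARA at 4 h, against 917.7, 947.5, 1037 and 1065 in vehicle at 4 h. The log2 effect was -0.66 at 48 h (adjusted p = 0.00784) and 0.45 at 4 h (unadjusted p = 0.00413, adjusted p = 0.66), and the difference was -1.11 (SE 0.17, adjusted p = 0.028). The change of Tk2 between times, 48 h minus 4 h, was -0.53 in NARA and 0.58 in vehicle, and it was the 1 late probe set that moved more in vehicle. Over the 25 late probe sets, 18 had the same sign at both times.

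Of the 4 unnamed probe sets, 1392785_at, 1394109_at and 1372031_at were late and lower, with differences of -1.40, -1.01 and -1.10 (adjusted p = 0.017, 0.0203 and 0.0269). The other, 1394542_at, was the only early call. It had 139.0 and 196.9 in NARA at 4 h, against 658.6, 548.4, 666.8 and 481.3 in vehicle at 4 h, while at 48 h it had 452.1, 424.3, 527.7 and 533.4 in NARA, against 221.2, 279.2 and 408.5 in vehicle. NARA was below vehicle at 4 h and above it at 48 h, with log2 effects of 0.63 at 48 h (adjusted p = 0.109) and -1.55 at 4 h (adjusted p = 0.0704) and a difference of 2.18 (SE 0.28, adjusted p = 0.0203).

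The DNA around the start of the late genes was read from the RefSeq promoter table of the rat (GRCr8), in windows of 300 bases, for 14 of the 17 genes whose brightest probe set was late. The androgen response element is a palindrome made of the half-site TGTTCT and its reverse complement with a spacer of 3 bases between them. The half-site was searched on both strands, so it also counts inside any palindrome. The half-site was in 5 of 14 late windows (35.7%) and in 6 of 40 sustained windows (15%), beside 20.7% of all 33469 windows. The full palindrome was in 0 of the late and 0 of the sustained windows, beside 0.0149% of all. A match describes the letters only, and no match says nothing of binding elsewhere. The 5 late windows with a half-site are shown, for genes that rose (Igf1 and Sult1a1) and that fell (Grem1, Lum and Dab2). The capitals mark the half-site or its reverse complement, and none of these windows holds the full palindrome.
Igf1 promoter, chr7:24172282-24172581, plus strand: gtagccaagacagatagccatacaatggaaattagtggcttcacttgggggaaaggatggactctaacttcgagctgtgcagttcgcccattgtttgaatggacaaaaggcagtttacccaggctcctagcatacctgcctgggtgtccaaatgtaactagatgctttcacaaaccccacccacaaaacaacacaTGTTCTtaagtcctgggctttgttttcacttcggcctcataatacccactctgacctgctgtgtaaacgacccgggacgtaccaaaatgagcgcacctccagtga
Sult1a1 promoter, chr1:190706063-190706362, minus strand: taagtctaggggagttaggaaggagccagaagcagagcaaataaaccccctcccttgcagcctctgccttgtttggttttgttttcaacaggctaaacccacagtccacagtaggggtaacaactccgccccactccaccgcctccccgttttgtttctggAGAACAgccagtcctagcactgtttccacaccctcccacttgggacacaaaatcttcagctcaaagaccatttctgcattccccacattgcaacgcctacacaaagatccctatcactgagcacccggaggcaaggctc
Grem1 promoter, chr3:120978270-120978569, minus strand: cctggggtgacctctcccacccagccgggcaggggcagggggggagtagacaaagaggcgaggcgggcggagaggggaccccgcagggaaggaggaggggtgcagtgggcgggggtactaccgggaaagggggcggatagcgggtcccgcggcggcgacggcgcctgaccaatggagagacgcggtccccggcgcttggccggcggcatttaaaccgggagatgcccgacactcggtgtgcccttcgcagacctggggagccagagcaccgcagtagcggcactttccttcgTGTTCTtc
Lum promoter, chr7:34245456-34245755, plus strand: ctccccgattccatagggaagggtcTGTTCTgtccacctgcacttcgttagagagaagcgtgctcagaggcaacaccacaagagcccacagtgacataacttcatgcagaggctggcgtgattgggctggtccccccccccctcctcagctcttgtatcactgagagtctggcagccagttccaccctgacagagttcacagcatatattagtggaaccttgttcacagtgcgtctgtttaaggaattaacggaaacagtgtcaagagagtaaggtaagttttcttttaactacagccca
Dab2 promoter, chr2:57272050-57272349, plus strand: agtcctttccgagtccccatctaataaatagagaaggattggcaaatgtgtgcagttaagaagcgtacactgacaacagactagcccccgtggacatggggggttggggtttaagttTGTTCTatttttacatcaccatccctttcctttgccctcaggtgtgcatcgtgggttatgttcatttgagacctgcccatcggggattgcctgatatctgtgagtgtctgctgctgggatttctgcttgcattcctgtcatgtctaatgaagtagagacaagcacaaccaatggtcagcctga

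Of 23 measured members of a list of steroid target genes, 7 passed at 48 h, 5 higher and 2 lower, beside 3.21% of all genes (1.71% higher, 1.5% lower). For the difference 0 passed, beside 0.151% of all genes, a share at which a list of this size would seldom hold a call. Of those 7, 6 were sustained: Fkbp5, Tsc22d3, Sgk1, Errfi1, Glul and Cited2, the last being lower, of which the last 3 were named after their values were seen. The other, Sms, an enzyme of polyamine synthesis, was lower and undecided. The list's median difference was 0.04, beside -0.00 over all genes, and it was -0.012 without NARA 48 h replicate 1.

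Fkbp5, a co-chaperone of steroid receptors, had 3155, 2557, 2537 and 2856 in NARA at 48 h, against 841.0, 712.2 and 721.9 in vehicle at 48 h. At 4 h it had 1728 and 1189 in NARA, against 1280, 817.4, 870.1 and 423.9 in vehicle, and the 4 h groups overlapped by 1 vehicle array. Its log2 effect was 1.80 at 48 h (adjusted p = 0.00475) and 0.82 at 4 h (unadjusted p = 0.0235), with a difference of 0.99 (SE 0.42, adjusted p = 0.524). Tsc22d3, a leucine zipper protein induced by glucocorticoids, had effects of 1.02 at 48 h and 0.54 at 4 h. Sgk1, a kinase of ion transport, had 21342, 20956, 22651 and 23666 in NARA at 48 h, against 12436, 12217 and 13223 in vehicle at 48 h. At 4 h Sgk1 had 17355 and 18808 in NARA, against 12116, 13172, 11452 and 12976 in vehicle. The groups of Sgk1 were apart at both times, and its effects of 0.81 at 48 h and 0.54 at 4 h differed by 0.27 (SE 0.14, adjusted p = 0.625). A difference that did not pass does not show that the effects were equal.

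The sustained gene with the greatest effect was Tfcp2l1, a transcription factor of epithelia and stem cells. It had 1914, 2473, 2265 and 2142 in NARA at 48 h, against 115.2, 309.1 and 176.4 in vehicle at 48 h, and 726.9 and 866.4 in NARA at 4 h, against 84.0, 57.2, 389.1 and 156.9 in vehicle at 4 h. The groups were apart at both times, with log2 effects of 3.24 at 48 h (adjusted p = 0.00129) and 2.15 at 4 h (unadjusted p = 0.000649). Hdhd3, a hydrolase of the haloacid dehalogenase family, had the greatest 4 h effect of the sustained genes. It had 646.6, 1261, 1012 and 594.2 in NARA at 48 h, against 272.5, 115.0 and 150.4 in vehicle at 48 h, and 925.2 and 1036 in NARA at 4 h, against 139.3 to 167.2 in vehicle at 4 h. Its effects were 2.01 at 48 h and 2.35 at 4 h, and the difference of -0.34 (SE 0.40, adjusted p = 0.845) was the 1 case among the named sustained genes that rose in which the 4 h effect was the bigger. Cmbl, a hydrolase, had effects of 1.71 and 1.11 at 48 h and 4 h, and Rgs2, which dampens G protein signalling, 1.59 and 0.84.

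Other sustained genes that rose at 48 h had smaller effects at 4 h. Enpp1, which makes pyrophosphate, had 2.70 at 48 h and 0.90 at 4 h, Ctnnal1, a relative of alpha-catenin, 2.35 and 0.75, and Tgfb2, a ligand of the transforming growth factor family, 1.33 and 0.35. Ctnnal1 lay just outside the threshold for the difference (1.60, SE 0.27, adjusted p = 0.0566), Tgfb2 also (0.98, adjusted p = 0.068). Trim63, a ubiquitin ligase of muscle, had effects of 1.42 and 0.55, Sybu, a protein of microtubule transport, 1.5 and 1.15, and Kctd14 1.47 and 0.47. The class thus spans genes with effects of similar size at both times and genes with a much smaller effect at 4 h that the test did not separate. Without vehicle 48 h replicate 2 or replicate 3, the 48 h effect of Sybu no longer passed (adjusted p up to 0.064).

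Of the sustained genes that fell, Ndnf, a secreted neurotrophic factor, had the effects closest to each other among the 10 named. It had 2281, 2129, 2300 and 2475 in NARA at 48 h, against 4161, 5352 and 6202 in vehicle at 48 h, and 2515 and 2416 in NARA at 4 h, against 5240, 4476, 5072 and 3989 in vehicle at 4 h. The groups were apart at both times and the NARA arrays of both times lay at a similar level, with effects of -1.16 at 48 h and -0.91 at 4 h (unadjusted p = 0.000142). Egr2, an immediate early transcription factor, had 1187, 1659, 1561 and 1746 in NARA at 48 h, against 4805, 5217 and 6348 in vehicle at 48 h. At 4 h Egr2 had 3111 and 2934 in NARA, against 4470, 4645, 4359 and 5543 in vehicle. Its effects were -1.80 at 48 h and -0.64 at 4 h, with a difference of -1.16 (SE 0.23, adjusted p = 0.0931). Nrk, a protein kinase, had effects of -1.90 and -0.93, and the gap junction protein Gjb2 -1.74 and -0.54. Smaller 48 h effects, between -1.20 and -1.03, were found for the complement protease Masp1, the scramblase Plscr1, the scaffold Cnksr3, Medag, the potassium channel subunit Kcns3 and the cadherin Cdh11, whose 4 h effects lay between -0.60 and -0.26. For Cdh11 and Masp1 a dimmer probe set had a difference of the opposite sign (0.98 and 0.27), and neither passed. Nrk and Kcns3 no longer passed at 48 h without vehicle 48 h replicate 2 or replicate 3 (adjusted p up to 0.0766 and 0.0594).

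**Figure D4:**
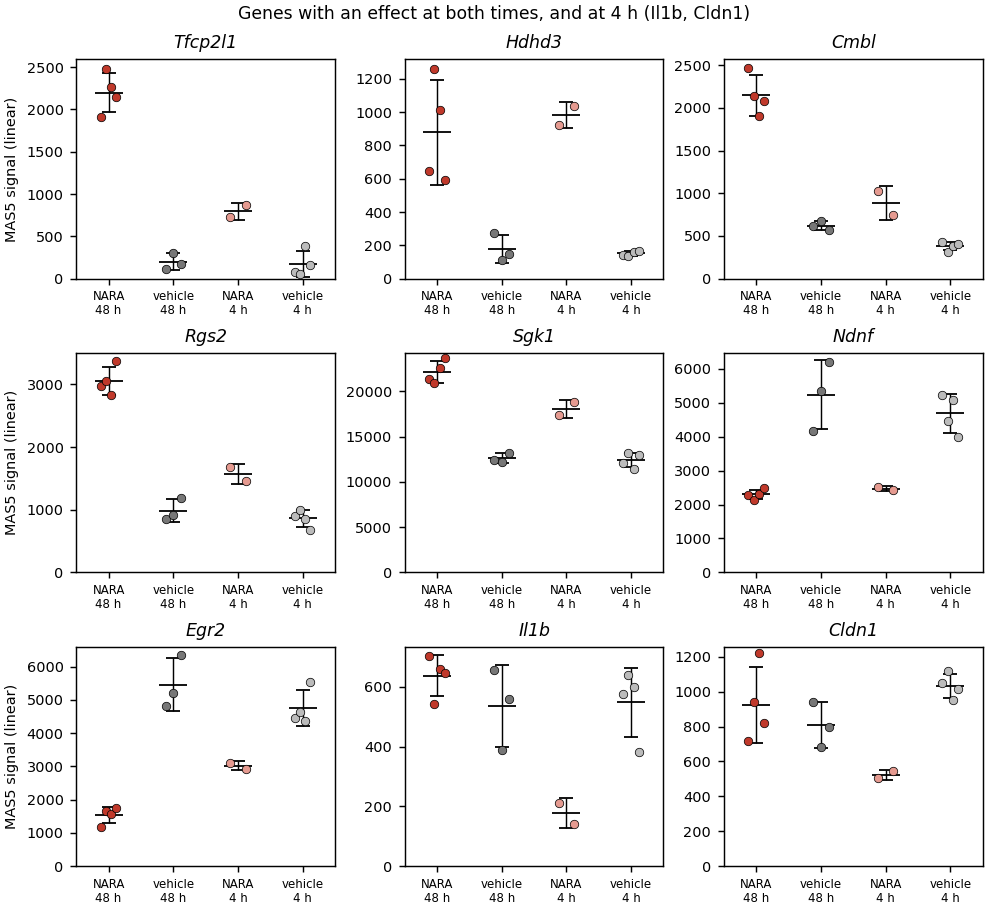
MAS5 signal (vertical axes, linear and starting at 0) in each array for 7 sustained genes and for the early candidates Il1b and Cldn1, with the group mean and SD, in NARA and vehicle at 48 h and then at 4 h. In these 7 sustained genes the NARA arrays are apart from vehicle on the same side at both times, while in Il1b and Cldn1 they are apart only at 4 h. Sustained genes were named mainly from those apart at both times. Of all 55 sustained genes 50 were apart at 4 h, beside 14.3% of all probe sets. The sorting by the 4 h p largely fixes that count.

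Across all 48 h calls, the 4 h effect leaned the same way. Of the 285 probe sets higher in NARA at 48 h, 216 (75.8%) had a positive 4 h effect, beside 54.4% of all tested probe sets with a positive 48 h effect. Of the 301 lower at 48 h, 239 (79.4%) had a negative 4 h effect, beside 51.3% of all with a negative 48 h effect. An unadjusted p under 0.05 at 4 h in the same direction was found for 60 of the higher and 36 of the lower, and in the opposite direction for 3 and 1, beside 2.05% of all probe sets that were higher at 4 h by that rule and 2.69% that were lower. The 48 h and the 4 h effects share no array, but their p-values share 1 estimate of the spread per probe set. A probe set with a low estimate thus tends to a small p at both times, so the counts by p are not independent. The sign of an effect does not use that estimate. The arrays of NARA and vehicle were apart in the same direction at both times in 1.96% of all probe sets.

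Several of the greatest 48 h effects could not be placed in time. Bmper, a secreted regulator of BMPs, had 1962, 3284, 2642 and 2990 in NARA at 48 h, against 195.0, 198.8 and 269.0 in vehicle at 48 h. At 4 h it had 231.0 and 287.5 in NARA, against 32.3, 263.6, 140.4 and 270.1 in vehicle, so the vehicle arrays alone spanned a wide range, and the difference of 2.71 (SE 0.60, adjusted p = 0.152) did not pass. Crispld2, a secreted protein, had 1253 to 1729 in NARA at 48 h, against 69.4 to 361.2 in vehicle at 48 h, and 50.4 and 68.4 in NARA at 4 h, against 47.5 to 90.3 in vehicle at 4 h. Its difference was 3.04 (SE 0.50, adjusted p = 0.0539), and a dimmer probe set gave 2.74. Fst, which binds and blocks activin and myostatin, had 3097, 2813, 2711 and 2701 in NARA at 48 h, against 458.1, 865.2 and 525.1 in vehicle at 48 h. At 4 h Fst had 1825 and 1354 in NARA, against 1454, 1126, 1504 and 958.3 in vehicle. Its difference was 1.83 (SE 0.32, adjusted p = 0.068), with a change between times, 48 h minus 4 h, of 0.83 in NARA and -1 in vehicle. The second Fst probe set was sustained (48 h 2.15, 4 h 0.67). Mfap2, a protein of elastic microfibrils, had effects of 2.60 at 48 h and 0.68 at 4 h, the formin Fhod3 2.50 and 0.51, Tpd52l1 2.31 and 0.57, and Thsd4, a matrix protein, 2.24 and -0.79. Among the lower undecided genes were Tmem26, the sodium channel Scn7a, Wfdc18, Mettl7a and Fam171a1, with differences between -2.33 and -1.13, none past the threshold. The 48 h effect of Thsd4 was lost without any 1 of 6 arrays, that of Fhod3 and of Scn7a without any 1 of 4 (adjusted p up to 0.109, 0.107 and 0.0918), each time including vehicle 48 h replicates 2 and 4 and NARA 48 h replicate 3.

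No named gene had an effect at 4 h that the test placed there alone. As a description, 253 of all 20904 probe sets (1.21%) had an unadjusted p under 0.01 at 4 h. Of all probe sets, 103 (0.493%) were higher and 150 (0.718%) lower by that rule. This share is near the 0.01 that such a rule gives when nothing differs. Of the 253, 160 were early candidates. Their 48 h effect was less than 50% of the 4 h effect in size, and they were called neither at 48 h nor for the difference. They stood for 74 genes, 19 higher and 55 lower in NARA at 4 h, and were dim, with a median signal of 518 against 2602 for the late probe sets. Il1b, the cytokine interleukin-1 beta, had 704.1, 542.7, 659.2 and 644.7 in NARA at 48 h, against 657.9, 387.7 and 560.7 in vehicle at 48 h, and 212.2 and 141.5 in NARA at 4 h, against 574.7, 638.7, 598.9 and 380.7 in vehicle at 4 h. Only the 2 NARA arrays at 4 h were low, and the difference of 1.65 (SE 0.31, adjusted p = 0.0764) did not pass. Cldn1, a tight junction protein, had 502.6 and 544.9 in NARA at 4 h, against 952.1 to 1118 in vehicle at 4 h, and overlapped at 48 h, but its dimmer probe sets had 4 h effects of the opposite sign. Lower at 4 h by the same description were the Wnt co-receptor Lrp5 (-1.67), the DNA damage mediator Mdc1 (-1.68) and Glod5 (-1.35). Higher were the nuclear receptor Nr2f2 (0.51), the splicing factor Cwc22 (0.49), Wdr25 (1.37), the fucosyltransferase Fut11 (0.59) and LOC100910319 (0.63). None of these 4 h effects passed in limma, with adjusted p from 0.175 (Il1b) to 0.46 (Fut11 and LOC100910319). Of the steroid list Tmprss2, a serine protease induced by androgen in human prostate, was the 1 early candidate, with effects of 0.61 at 48 h and 1.56 at 4 h, and it was named after its values were seen. Without NARA 4 h replicate 3 there were 289 early candidates.

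Gene lists were described by counts and medians of each gene's brightest probe set. Over all genes the difference was positive in 5621 of 11286 and its median was -0.00. Of these genes 0.151% passed for the difference (0.0886% positive, 0.062% negative) and 3.21% at 48 h (1.71% higher, 1.5% lower). Of 32 measured genes of mitosis, 30 had a positive difference, with a median of 0.40, and 0 passed for the difference, at 48 h or at 4 h. The effect of NARA was positive in 29 of the 32 at 48 h (median 0.26) and negative in 29 at 4 h (median -0.15). The list's median change between times, 48 h minus 4 h, was -0.16 in NARA and -0.56 in vehicle, and all 32 genes had a negative change in vehicle, 23 of them with an unadjusted p under 0.05, beside 3.89% of all probe sets that were negative by that rule. Ccnb1, the cyclin that starts mitosis, had 2139, 2114, 1707 and 1558 in NARA at 48 h, against 1159, 1227 and 1285 in vehicle at 48 h. At 4 h Ccnb1 had 2393 and 1753 in NARA, against 2550, 2173, 3201 and 1910 in vehicle. Vehicle at 48 h was the lowest group, and the difference was 0.82 (SE 0.28, adjusted p = 0.412). Mad2l1, of the spindle checkpoint, showed the same order with a difference of 0.98 (adjusted p = 0.244), although another of its probe sets gave -0.06. Of 29 genes of DNA replication, 21 had a positive difference (median 0.19), 0 passed, and the replication factor Gins1 had 1.44 (adjusted p = 0.14). E2f1, a transcription factor of S phase, had 0.67 (adjusted p = 0.279).

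**Figure D5:**
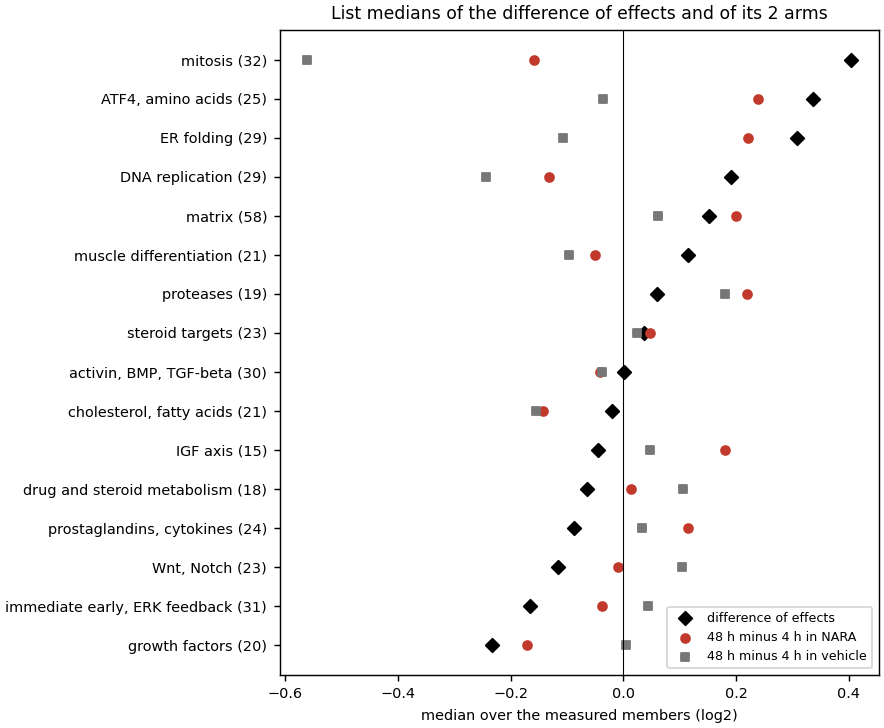
Median log2 value over the measured members of each of 16 gene lists (number in brackets) for the difference of effects (diamonds), for 48 h minus 4 h in NARA (circles) and for 48 h minus 4 h in vehicle (squares). Mitosis has the highest median difference, 0.40, and the lowest vehicle change, -0.56.

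Genes of protein folding in the endoplasmic reticulum had a positive difference in 25 of 29, with a median of 0.31. Of these genes 7 rose at 48 h (Hspa5, Sdf2l1, Manf, Sec24d, Ssr1, Selenos and Fkbp11, named after their values were seen, as are all list members given below only for a 48 h call), 0 fell, and 0 passed for the difference or at 4 h. All 7 were undecided. Manf, a secreted factor of endoplasmic reticulum stress, had 17720, 19193, 17434 and 20308 in NARA at 48 h, against 10709, 11138 and 9610 in vehicle at 48 h. At 4 h Manf had 13535 and 12604 in NARA, inside the vehicle range of 10797 to 13569. Its difference was 0.72 (SE 0.17, adjusted p = 0.176). Ssr1, a subunit of the translocon-associated complex, differed by 0.76 (adjusted p = 0.0931). In the amino acid response list, governed by the transcription factor Atf4, 18 of 25 had a positive difference (median 0.34), and 3 rose at 48 h (Psat1, Vldlr and Ddit4), while 21 of 25 had a negative 4 h effect, none of them past the threshold. Vldlr, a lipoprotein receptor, had a difference of 0.88 (adjusted p = 0.0587) and Ddit4, an inhibitor of mTOR signalling, 0.77 (adjusted p = 0.374), and the 48 h call of Ddit4 was lost without vehicle 48 h replicate 2 (adjusted p = 0.0596). The list's median was 0.19 without NARA 4 h replicate 3 and 0.48 without NARA 4 h replicate 2.

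Of 31 immediate early genes and feedback regulators of ERK signalling, 20 had a negative difference, with a median of -0.17, and 3 fell at 48 h (Egr1, Egr2 and Dusp6). Dusp6, a phosphatase of ERK, differed by -0.64 (adjusted p = 0.47), and its 48 h call was lost without vehicle 48 h replicate 2, 3 or 4 or NARA 48 h replicate 1 or 3 (adjusted p up to 0.1). Of 58 matrix genes 37 had a positive difference (median 0.15), 2 passed (Srpx positive, Lum negative), and 8 rose and 6 fell at 48 h. Of 30 genes of activin, BMP and transforming growth factor signalling, 1 passed for the difference (Grem1, negative), 6 rose and 1 fell at 48 h, and the median difference was 0.00 (-0.03 to 0.09 without 1 array). In the list of prostaglandins and cytokines, 24 measured, Ptgs2 passed for the difference, 2 rose at 48 h (Ptgs1 and Ccl2) and 5 fell (Ptgs2, Cxcr4, Il33, Cxcl12 and Tnfaip6), and the median was -0.09. Among 20 growth factors and their receptors 0 passed for the difference, and 13 were negative (median -0.23). Fgfr2, a receptor of fibroblast growth factors, rose at 48 h with effects of 1.05 at 48 h and 0.17 at 4 h, although a dimmer probe set had a difference of the opposite sign, -0.46. Vegfc, a ligand of lymphatic growth, had -0.47 (adjusted p = 0.444).

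The remaining lists held 0 calls for the difference of effects. Their median differences were -0.12 over 23 Wnt and Notch genes, 0.06 over 19 proteases and inhibitors, 0.11 over 21 genes of muscle differentiation and -0.02 over 21 genes of cholesterol and fatty acid synthesis. Of these, 3 turned sign when 1 array was left out: the Wnt and Notch median was 0.09 without vehicle 48 h replicate 2 (-0.58 with a minimum signal of 1000), that of muscle differentiation was -0.05 without vehicle 4 h replicate 3, and that of cholesterol and fatty acid synthesis ran from -0.07 to 0.06. Sfrp2, a Wnt antagonist, fell at 48 h with a difference of -0.64 (adjusted p = 0.184), and Tpm1, a tropomyosin, fell at 48 h with a difference of -0.51 (adjusted p = 0.371). Both calls at 48 h were lost without vehicle 48 h replicate 2, with adjusted p = 0.0504 and 0.0527. Of the proteases, Mmp23 had a difference of 1.39 and Mmp16 one of -1.09, and of the cholesterol enzymes Mvd had -0.60 and Nsdhl 0.38, none past the threshold. Of the muscle differentiation list, 16 of 37 genes on the array lay below the minimum signal. The satellite markers had 0 calls for the difference by brightest probe sets, and 2 of 11 fell at 48 h, Cxcr4 and Sdc4. Of the fibroblast markers 1 of 12 passed for the difference, Lum, and 3 fell at 48 h, Lum, Pdgfra and Loxl1. The part of cell composition in the late effects was not tested.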

How the data were processed

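Per the series' design text, total RNA was hybridised to Affymetrix rat arrays, 1 per sample. The deposited intensity of a probe set is its linear MAS5 signal (per the submitters' processing notes), and the authors set the trimmed mean of each array to 1500 (per the series' design text). The labels' protocols name Trizol for the extraction, the design text a column kit. Per the design text the authors excluded vehicle 48 h replicate 1 and, of the NARA 4 h arrays, replicates 1 and 4, as was done here. Signals were taken as log2(signal + 50), which understates the change of dim probe sets. Group means of the 13 arrays were fitted together with limma 3.58.1 in R 4.3.3 (lmFit, eBayes), and two-sided p-values of 5 contrasts were adjusted by Benjamini-Hochberg over 20904 probe sets, with a threshold of 0.05. Errors of log2 values are limma's standard errors. Of 31099 probe sets, 57 controls were set aside, and the platform annotation gave 20826 of the rest 1 symbol, 436 several and 9780 none. The brightest probe set stood for a gene.

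The named genes were all that passed for the difference of effects, up to 10 higher and 10 lower sustained genes by 48 h effect with groups apart at both times, up to 6 and 6 undecided genes, up to 5 and 5 early candidates by 4 h p, up to 2 genes per list with the smallest p, and 13 genes that are always named. The members and the 16 gene lists and 10 marker lists were chosen with earlier results of these data known. In simulated data with 200 changed probe sets in each of 5 runs, the difference of effects recovered 4.4% of the changes of 1.5-fold, 30.4% at 2-fold, 74% at 4-fold and 86.8% at 8-fold, and 7.03% of its calls were false. Alternatives were other sets of arrays, array weights, offsets, signal minimums, scalings, another prior, other probe sets, the replicate block and leaving out each array.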

Additional observations from a re-analysis of the deposited data

Results flagged for a closer look

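The 26 probe sets whose agonist effect differed between 48 h and 4 h were tested by the difference itself in limma. The positive differences, on the log2 scale, were 2.86 for Ces1d, 2.18 for 1394542_at, 1.98 for Tent5b, 1.86 for Msra, 1.74 for Sult1a1, 1.73 for Lrrn3, 1.63 for Srpx, 1.59 and 1.27 for Igf1, 1.44 for Thbd, 1.38 for Lmo4 and 1.21 for Arl15. The negative ones were -3.12 for Stxbp5, -2.65 for Cxcr4, -1.61 for Il33, -1.48 for Ptgs2, -1.47 for Osr2, -1.40 for 1392785_at, -1.25 for Grem1, -1.16 for Olfml2a, -1.11 for Tk2, -1.10 for Cdv3, -1.10 for 1372031_at, -1.03 for Lum, -1.01 for 1394109_at and -0.83 for Dab2.

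Single arrays stood far from the others of their group in 4 of 182 groups of 4 arrays, while chance marks about 1 in 20. The probe set 1392785_at had 966.3 in NARA 48 h replicate 2, against 1169 to 1200 in the other NARA 48 h arrays. Nr2f2 had 7498 in NARA 48 h replicate 1, against 8255 to 8390 in the others of its group. Wdr25 had 236.8 in vehicle 4 h replicate 4, against 93.6 to 106.2. Mmp23 had 299.9 in vehicle 4 h replicate 2, against 802.5 to 930.6.

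Among the arrays not used, NARA 4 h replicates 1 and 4 lay above the vehicle 4 h mean in 12 genes of liver, by a median of 7.84 and 8.06 on the log2 scale.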

How the results depend on the processing

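The difference of effects passed in 26 probe sets with an offset of 1 (early 2), 46 with an offset of 200 (late 44, early 2), 33 with quantile scaling and 24 with median scaling (3 at 4 h, 106 over time in NARA). With no signal minimum it passed in 11 (late 9, early 2, undecided 269, early candidates 272), with 355 at 48 h and 79 over time in NARA. With a minimum of 1000, where fewer probe sets were tested, it passed in 93 (late 89, early 4, undecided 866, early candidates 76), with 1069 at 48 h, 2 at 4 h and 325 over time in NARA. A trended and robust prior gave 126 (late 122, early 4, undecided 861), with 1098 at 48 h, 9 at 4 h and 372 over time in NARA. Array weights gave 52 over the 13 arrays (late 46, early 6, with 6 at 4 h) and 29 over all 16 (4 at 4 h, 109 over time in NARA). With vehicle 48 h replicate 1 put back the difference passed in 60 (late 57, early 3). With all 16 arrays unweighted, limma gave 0 differences (2101 with an unadjusted p under 0.05), 0 late, 0 early, 16 sustained, 23 undecided and 709 early candidates, with 39 at 48 h, 1 at 4 h and 27 over time in NARA.

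With the mean of each group taken off, arrays of different groups were correlated in pairs. Same-numbered arrays had correlations of -0.0364 to 0.0387 over 16 pairs, against -0.0524 to 0.05 over 46 differently numbered pairs. These values gave no sign of a pairing by number. They cannot show that none exists, since no label names a culture and NARA at 4 h held only 2 arrays. With the replicate block limma gave 0 differences (1638 with an unadjusted p under 0.05), 0 late, 0 early and 247 undecided, with 312 at 48 h and 51 over time in NARA; all 26 kept their sign. Leaving out each array gave 1 to 32 differences, 310 to 527 effects at 48 h, 0 to 19 at 4 h, 69 to 152 changes over time in NARA and 0 to 2 in vehicle, with 1 to 29 late, 0 to 6 early, 66 to 88 sustained, 234 to 440 undecided and 133 to 289 early candidates. Of 45 named 48 h calls, 35 passed in all 13 of those fits and all 45 kept their sign.

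Signs turned with all 16 arrays for the difference of 1392785_at 0.32, 1394109_at 1.37, Grem1 1.95, Sult1a1 -0.064, Osr2 0.71, 1372031_at 0.25, Ptgs2 0.063, Lum 3.29, Dab2 0.43, Olfml2a 0.13, Cmbl -1.90, Nrk 0.17, Egr2 0.19, Ndnf 0.38, Medag 1.54, Kcns3 0.53, Cdh11 1.17, Wfdc18 0.054, Nr2f2 0.097, Cwc22 0.19, Sms 1.92, Tsc22d3 -0.31, Vegfc 0.71, Mvd 0.32 and Tpm1 0.32, and for the 4 h effects of Cwc22 (-0.16) and Cldn1 (0.073). Other probe sets of the gene turned the sign for Masp1 (0.27), Cdh11 (0.98), Cldn1 (-0.49 in both), Mad2l1 (-0.056), Fgfr2 (-0.46), Nsdhl (-0.27) and Tpm1 (0.099). The cause of these changes was not tested. Without 1 array, list medians, computed after the data were seen, stayed positive for mitosis (0.26 to 0.55), protein folding (0.20 to 0.32), the amino acid response (0.19 to 0.48), DNA replication (0.097 to 0.28), matrix (0.076 to 0.23) and proteases (0.026 to 0.11), and negative for immediate early genes (-0.20 to -0.08), growth factors (-0.30 to -0.18) and prostaglandins and cytokines (-0.25 to -0.059). They took both signs for Wnt and Notch (-0.28 to 0.09), muscle differentiation (-0.046 to 0.17), the insulin-like growth factor axis (-0.072 to 0.19), activin and BMP signalling (-0.034 to 0.091), cholesterol and fatty acid synthesis (-0.067 to 0.058), steroid targets (-0.012 to 0.10) and drug and steroid metabolism (-0.10 to 0.0020). With all 16 arrays the growth factor median was 0.38. Array signals have no read depth, and the number of arrays limits the precision of all these values.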
